A study of Rattus norvegicus with 9 samples.

Results

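Prostaglandin and leukotriene genes were followed in the rat brain after ischemic stroke, namely the cyclooxygenases Ptgs1 and Ptgs2, the prostaglandin E synthase Ptges, the prostaglandin E receptors Ptger1, Ptger2, Ptger3, and Ptger4, and the leukotriene genes Alox5, Alox5ap, and Ltc4s. These 10 genes, of 19293 gene symbols on the arrays, were taken by name, and 12 of the 30367 probes carry one of the names. Ptgs1 and Ptger3 have a pair of probes each, and the brighter one by mean signal over the 9 arrays stands for the gene. The arrays came from male Sprague Dawley rats, 1 array per rat and 3 rats per group, and measured RNA of the infarcted hemisphere 14 days after surgery. The Sham rats had the artery exposed without a filament and were given solvent. The I/R rats had 2 h of middle cerebral artery occlusion followed by reperfusion. The DHI rats had the same surgery and then a daily tail vein dose of Danhong injection, a preparation made mainly from the herbs Danshen and Honghua, until the tissue was taken. No group carries a stated genetic change, rats counted as stroke models by a neurological score, and neither their age nor a solvent for the I/R rats is given in the sources used here. The arrays therefore ask how these genes stood late after stroke and how they stood in treated animals, in bulk tissue that mixes all cells of a hemisphere.

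Cyclooxygenases turn arachidonic acid, a fatty acid cut from membrane lipids, into prostaglandin H2, from which separate synthases make prostaglandin E2, prostaglandin D2, prostacyclin, and thromboxane. In a parallel branch, 5-lipoxygenase acts with its partner protein FLAP to make leukotriene A4, which becomes either leukotriene B4 or, by addition of glutathione, leukotriene C4. In brain, Ptgs1 is known mainly from microglia, Ptgs2 is made by excitatory neurons at rest and by many cells in inflammation, and the 5-lipoxygenase branch is best known from leukocytes.

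The probes are 60 bases long, and their positions are those of the rn4 build as the array files give them. The following probes are shown because they lie in coding sequence and read the genes that moved most clearly in either branch. Capitals mark the stop codon that ends the Ptgs2 probe and the start codon in the Ltc4s probe, so the first reads the far end and the second the near end of its coding sequence.
Ptgs1, second probe, chr3:15350683-15350742, plus strand: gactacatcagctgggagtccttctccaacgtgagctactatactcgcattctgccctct
Ptgs2, chr13:64432919-64432978, plus strand: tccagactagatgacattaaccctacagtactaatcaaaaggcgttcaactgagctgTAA
Alox5ap, chr12:6246233-6246292, minus strand: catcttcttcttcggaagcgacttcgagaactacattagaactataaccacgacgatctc
Ltc4s, chr10:35788756-35788815, minus strand: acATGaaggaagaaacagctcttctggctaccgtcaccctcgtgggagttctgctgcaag

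Levels are given as log2 relative signal, the log2 intensity minus the 75th percentile of the same array, so 0 means as bright as that percentile. Levels of different probes are not set against each other. That percentile ran from 1816 to 3464 intensity units over the 9 arrays, the share of probes well above background ran from 75.2% to 78.9%, and 0 probes were saturated. To check the labelled tissue, neuron and astrocyte markers were read, and 8 of 8 and 6 of 6 were above background throughout. All DHI arrays lay on slide 2 and all others on slide 1, so slide and treatment cannot be told apart in any comparison with DHI. The arrays of a treated or injured group differed among themselves, with I/R 3 closer to Sham than the other I/R arrays and DHI 1 close to I/R, and the choroid plexus markers, summed as multiples of the 75th percentile, were at most 0.98 in Sham, 1.45, 2.99, and 94.0 on I/R 1 to 3, and 137, 7.48, and 74.3 on DHI 1 to 3. A gene was called where limma gave an unadjusted p under 0.05 and a fold change (FC) over 1.5, the thresholds named in the methods. Adjusted p-values are Benjamini-Hochberg values over the 23747 probes tested.

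Of the 10 genes, 9 could be tested, and Ptger4 was too dim. In I/R versus Sham, 6 of the 9 were higher in I/R, namely Ptgs1, Ptges, Alox5ap, Ltc4s, Ptger1, and Ptger2, where 20.8% of all probes tested were called higher. Only Ptgs2 was called lower, where 22.3% of all probes were. The adjusted p was under 0.05 for 6 genes, 5 higher and 1 lower, against 32.3% of all probes. For 8 of the 9 genes no Sham array fell within the range of I/R, against 62.5% of all probes. The median log2 fold change of the 9 genes was 1.91, beside -0.10 for all probes tested, and 1 of the 9, Ptger1, was tested only because it was bright enough in I/R. The adjusted count rests on the full set of arrays. It was 0 without any 1 of the Sham arrays, I/R 1, I/R 2, or DHI 3, 0 with no scaling between arrays, and 7 without I/R 3 or DHI 1, while the count of calls stayed between 6 and 9 when any 1 array was left out, 9 being of the 10 genes that could be tested without I/R 3.

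Between DHI and I/R, 5 of the 9 genes were called. Ptgs2 was higher in DHI, where 11.4% of all probes were called higher, and Ptgs1, Alox5ap, Ptger2, and Ptger3 were lower, where 10.5% were called lower. None passed adjustment in limma (0 of 9, smallest adjusted p = 0.196), as was so for nearly all probes, of which 0.00421% passed. The methods' t-test, run here on the scaled and filtered values of this report, called 0 of the 9. The study itself listed Ptger3 among its genes that differed between DHI and I/R. Ptger2 was the 1 gene for which DHI and I/R were fully apart, against 9.54% of all probes. The median log2 fold change was -1.26, beside 0.10 for all probes. The count was 1 without I/R 1, DHI 2, or DHI 3, that gene being Ptgs1, and 3 without Sham 1, Sham 2, or I/R 2. It was 7 of 10 tested without I/R 3, where Ptger4 enters, and 8 of 9 without DHI 1. Against Sham, 0 of the 9 genes were called in DHI by limma, where 2.52% of all probes were called higher and 1.05% lower. No gene had an adjusted p under 0.05 (0 of 9, smallest 0.708, and 0% of all probes), and no gene had an unadjusted p under 0.05 (0 of 9). Without DHI 2, 3 genes were called. The comparisons share arrays, so the values of a gene in one are not independent of its values in another.

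**Figure D1:**
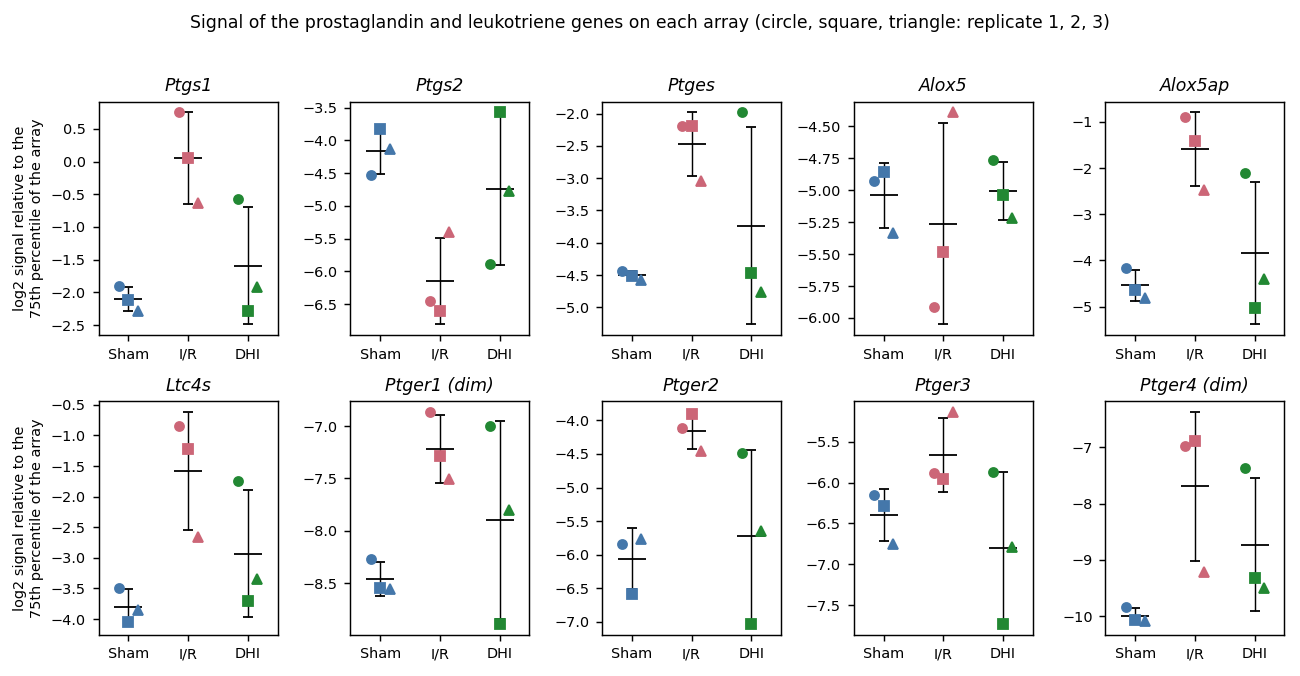
Log2 signal of each gene relative to the 75th percentile of its array, with 1 point per array, the bar at the group mean and whiskers of 1 SD (3 arrays per group); each panel has its own axis and dim marks genes not well above background on any Sham array. For Ptgs1 the I/R arrays lay between -0.64 and 0.75, above all Sham arrays, and DHI 1 lay at -0.58 apart from the other DHI arrays, while Ptgs2 ran the other way.

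The cyclooxygenases moved in opposite directions after stroke. Ptgs1, the constitutive form, read -1.90, -2.12, and -2.28 on Sham 1 to 3, 0.75, 0.05, and -0.64 on I/R 1 to 3, and -0.58, -2.28, and -1.92 on DHI 1 to 3 (log2 relative signal). Every I/R array was above every Sham array, and DHI 1 lay among the I/R arrays while DHI 2 and DHI 3 lay near Sham. The mean was -2.10 ± 0.19 for Sham, 0.05 ± 0.70 for I/R, and -1.59 ± 0.90 for DHI (SD, n = 3). Ptgs1 was thus 4.45-fold higher in I/R than in Sham (log2 fold change 2.15, SE 0.48, limma adjusted p = 0.0397), and in DHI it was 3.13-fold below I/R (log2 fold change -1.65, SE 0.48, adjusted p = 0.196). The call in DHI versus I/R was lost by the methods' t-test. The brightest probe lies at chr3:15365115-15365174. The second probe, the one printed here, was called in the same directions, with log2 fold changes of 1.67 and -0.99. That second probe was well above background on 2 Sham, 3 I/R, and 1 DHI arrays.

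Ptgs2, the inducible form, gave -4.53, -3.83, and -4.14 on the Sham arrays, -6.45, -6.61, and -5.40 on the I/R arrays, and -5.89, -3.57, and -4.78 on the DHI arrays. All I/R arrays were below all Sham arrays, and DHI 1 was again the DHI array nearest to I/R. From means of -4.17 ± 0.35, -6.15 ± 0.66, and -4.75 ± 1.16 (SD, n = 3), Ptgs2 was 3.96-fold lower in I/R than in Sham (log2 fold change -1.99, SE 0.58, limma adjusted p = 0.0412). It was 2.65-fold higher in DHI than in I/R (log2 fold change 1.41, SE 0.58, adjusted p = 0.196), a call that was lost with quantile normalization (1.39), the authors' own log2 values (1.39), no scaling (0.95), a model of the compared groups only, the methods' t-test, and when any array other than I/R 3 or DHI 1 was left out (0.82 to 1.42). The difference between the cyclooxygenases does not depend on the scaling of an array. Relative to Sham, Ptgs1 minus Ptgs2 was 5.14, 4.59, and 2.69 on I/R 1 to 3 and 3.25, -0.78, and 0.79 on DHI 1 to 3 (log2 units, SD over the Sham arrays 0.49).

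Promoters of both cyclooxygenases are shown because their RNAs moved in opposite directions. They are the 250 bases before the gene start in RefSeq (GRCr8), and capitals mark the motifs found.
Ptgs1, chr3:39981169-39981418, plus strand: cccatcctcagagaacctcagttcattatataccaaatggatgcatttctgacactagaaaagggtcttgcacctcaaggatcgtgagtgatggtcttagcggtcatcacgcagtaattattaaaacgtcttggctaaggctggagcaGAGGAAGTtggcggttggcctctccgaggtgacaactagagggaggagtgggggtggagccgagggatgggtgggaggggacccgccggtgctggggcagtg
Ptgs2, chr13:64713813-64714062, plus strand: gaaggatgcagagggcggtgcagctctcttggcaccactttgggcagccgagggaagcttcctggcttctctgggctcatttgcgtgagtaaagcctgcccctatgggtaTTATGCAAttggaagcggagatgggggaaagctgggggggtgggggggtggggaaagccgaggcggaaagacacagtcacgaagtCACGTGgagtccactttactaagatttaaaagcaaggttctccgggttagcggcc
The letters GAGGAAGT, a form of the site of the myeloid factor PU.1, begin 102 bases before the start of Ptgs1. They were searched on both strands and occur in 2.04% of 33469 promoter windows of this length and in 2 of the 9 matched here, the other being Ptger4. In Ptgs2 an E-box, CACGTG, begins 55 bases before the start and a C/EBP-type motif, TTNNGCAA, 140 bases before it. The E-box occurs in 5.59% of the windows and in no other gene matched here, and TTNNGCAA in 9.22% and also in Ptges. A TATA box spelled TATAAA occurs in 12.9% of the windows and in 0 of the 9. These are matches of letters and were not tied to any measurement of binding.

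Ptges, the inducible synthase that turns prostaglandin H2 into prostaglandin E2, ran in the direction of Ptgs1. Its probe, at chr3:9946741-9946800, read -4.43, -4.51, and -4.57 in Sham, -2.19, -2.19, and -3.04 in I/R, and -1.98, -4.46, and -4.77 in DHI (log2 relative signal). The Sham arrays lay close together, all I/R arrays were above them, and DHI 1 was higher than any I/R array while DHI 2 and DHI 3 were at or below the level of Sham. Ptges was 4.09-fold higher in I/R than in Sham (log2 fold change 2.03, SE 0.67, limma adjusted p = 0.0496). Between DHI and I/R the log2 fold change was -1.26 (SE 0.67, 95% interval -2.80 to 0.28), and the gene was not called. Without DHI 1 it was called, at -2.14.

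Among the receptors of prostaglandin E2, Ptger2 gave the clearest values. This receptor, also called EP2, couples to the stimulatory G protein and raises cyclic AMP. Its probe, at chr15:20889441-20889500, read -5.84, -6.58, and -5.76 in Sham, -4.11, -3.90, and -4.45 in I/R, and -4.48, -7.03, and -5.65 in DHI. All I/R arrays were above all Sham and all DHI arrays, although DHI 1 missed I/R 3 by little. Ptger2 was 3.75-fold higher in I/R than in Sham (log2 fold change 1.91, SE 0.58, limma adjusted p = 0.0430) and in DHI 2.96-fold below I/R (log2 fold change -1.57, SE 0.58, adjusted p = 0.196). The second call was lost with normexp background correction (-0.44) and by the methods' t-test. It was also lost when I/R 1, I/R 2, DHI 2, or DHI 3 was removed (-0.91 at the smallest, for DHI 2).

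Ptger3, which lowers cyclic AMP through the inhibitory G protein, was called in DHI versus I/R and, by its brightest probe, not in I/R versus Sham. That probe, at chr2:255719678-255719737, read -6.15, -6.28, and -6.75 in Sham, -5.88, -5.96, and -5.14 in I/R, and -5.87, -7.73, and -6.79 in DHI. The I/R arrays lay above the Sham arrays by a narrow margin, and DHI 2 was the lowest array and the one not well above background. The log2 fold change was 0.74 in I/R versus Sham (SE 0.46, 95% interval -0.32 to 1.79) and -1.14 in DHI versus I/R (SE 0.46, limma adjusted p = 0.196). Its other probe, at chr2:255759143-255759202, was called in both comparisons, at 0.93 (adjusted p = 0.0614) and -1.12, so the probes differ on whether the stroke effect passes the thresholds. The call in DHI versus I/R was lost with normexp (-0.02), in a model of the compared groups only, and by the methods' t-test. It was also lost when any array other than Sham 3, I/R 2, or DHI 1 was left out.

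The other receptors were dim. Ptger1, which signals through calcium, was well above background on 0 of 3 Sham arrays, 3 of 3 I/R arrays, and 1 DHI array. It read -8.27, -8.54, and -8.56 in Sham, -6.87, -7.29, and -7.50 in I/R, and -7.00, -8.89, and -7.80 in DHI. The I/R mean of Ptger1 was at least 2.36-fold above Sham (limma adjusted p = 0.0567), a call that was lost with normexp and without Sham 2, Sham 3, or I/R 1. A bound given as "at least" sets the I/R mean against the higher of the probe's own signal and the lowest signal well above background on each Sham array. Such a bound makes no allowance for spread between arrays, and for Ptger1 it equals the fitted value. Ptger1 was not called in DHI versus I/R, where 2 of the DHI arrays were too dim for a measured difference. Ptger4, which like Ptger2 raises cyclic AMP, read -9.83, -10.07, and -10.08 in Sham, -6.98, -6.89, and -9.22 in I/R, and -7.37, -9.32, and -9.49 in DHI. It rose above background only on I/R 1, I/R 2, and DHI 1. The I/R mean was at least 2.20-fold above Sham, without a test in the main fit because I/R 3 was dim. With no filter on dim probes Ptger4 was tested and called (limma adjusted p = 0.0570), from Sham signal not above background.

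The leukotriene branch was uneven, with its first enzyme not called and its partners higher. Alox5, the 5-lipoxygenase, was well above background on all arrays and read -4.93, -4.86, and -5.33 in Sham, -5.92, -5.49, and -4.39 in I/R, and -4.77, -5.03, and -5.22 in DHI. I/R 3 was above all Sham arrays while I/R 1 and I/R 2 were below them, so the groups overlapped. The log2 fold change was -0.22 in I/R versus Sham (SE 0.37, 95% interval -1.08 to 0.63) and 0.26 in DHI versus I/R (95% interval -0.60 to 1.11). Neither was called with all arrays, and without I/R 3 both were, at -0.66 and 0.69. The probe, at chr4:152610831-152612409, covers a stretch longer than itself and so crosses an intron.

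Alox5ap, which encodes FLAP, the membrane protein that presents arachidonic acid to 5-lipoxygenase, had the largest rise of the 10 genes in fitted log2 fold change. It read -4.16, -4.65, and -4.81 in Sham, -0.90, -1.41, and -2.47 in I/R, and -2.10, -5.03, and -4.40 in DHI. The I/R arrays were far above the Sham arrays, and DHI 1 lay above I/R 3 while DHI 2 was below every Sham array. With means of -4.54 ± 0.34, -1.59 ± 0.80, and -3.84 ± 1.54 (SD, n = 3), the gene was 7.70-fold higher in I/R than in Sham (log2 fold change 2.94, SE 0.73, limma adjusted p = 0.0397) and in DHI 4.75-fold below I/R (log2 fold change -2.25, SE 0.73, adjusted p = 0.196). The latter call was lost by the methods' t-test and without I/R 1 (-1.90), DHI 2 (-1.65), or DHI 3 (-1.97). Relative to Sham, Alox5ap minus Alox5 was 4.52, 3.57, and 1.42 on I/R 1 to 3 and 2.17, -0.49, and 0.32 on DHI 1 to 3 (log2 units, SD over the Sham arrays 0.28).

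Ltc4s, the synthase that joins leukotriene A4 to glutathione, gave -3.49, -4.05, and -3.86 in Sham, -0.84, -1.23, and -2.67 in I/R, and -1.75, -3.70, and -3.35 in DHI. All I/R arrays were above all Sham arrays, and the DHI arrays ran from the level of Sham into that of I/R. Ltc4s was 4.66-fold higher in I/R than in Sham (log2 fold change 2.22, SE 0.60, limma adjusted p = 0.0404). Its log2 fold change in DHI versus I/R was -1.35 (SE 0.60, 95% interval -2.74 to 0.04), short of the threshold, and it was called with no scaling (-1.81), with array weights (-2.11), and without I/R 3 (-1.90) or DHI 1 (-1.95).

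**Figure D2:**
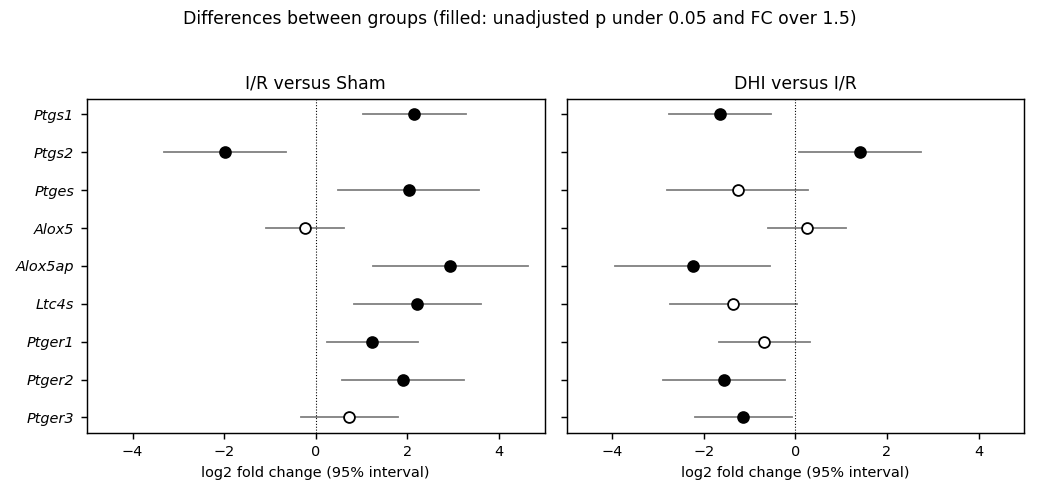
Log2 fold changes of the 9 genes tested with 95% intervals from limma, for I/R versus Sham on the left and DHI versus I/R on the right; filled points had an unadjusted p under 0.05 and FC over 1.5. On the left 6 genes lie to the right of 0 and Ptgs2 to the left (-1.99), and on the right Ptgs2 lies at 1.41 and Alox5ap at -2.25, with intervals that are wide in both panels; Ptger1 was above background on no Sham array and 1 DHI array.

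In DHI versus Sham the log2 fold changes of the 9 genes lay between -0.58 for Ptgs2 and 0.87 for Ltc4s, and the intervals remained wide. For Alox5ap the difference was 0.70 with a 95% interval of -0.99 to 2.39, and for Ptgs2 it was -0.58 with an interval of -1.91 to 0.75. The missing calls therefore do not show that DHI and Sham were alike.

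The spread within the groups ran the same way for most of these genes. Of the 5 genes called higher in I/R and above background on every array, DHI 1 was the highest DHI array for 5, DHI 2 was the lowest for 4, and I/R 3 was the lowest I/R array for 5. On a scale where the Sham mean is 0% and the I/R mean 100%, these genes and Ptgs2 put DHI 1 at 70.7% to 124% (median 84.9%), DHI 2 at -51.0% to 4.53% (median -12.4%), and DHI 3 at -12.8% to 30.7% (median 14.3%). I/R 3 was at 51.0% to 84.4% (median 69.0%). The mean of the DHI group thus stands between an array near I/R and arrays near Sham. Across the 9 arrays, which share these differences, Pearson's r was 0.99 between Ptgs1 and Alox5ap, 0.97 between Ptgs1 and Ltc4s, and -0.95 between Ptgs1 and Ptgs2. For Alox5 against Ptgs1 it was -0.38.

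Markers of microglia and macrophages moved with the genes that rose. All 10 of 10 were well above background on every array, against Sham the I/R group had calls for 9, all of them higher (0 lower), and 8 were called lower in DHI than in I/R. The exception in I/R versus Sham was Cx3cr1, which was not called in either comparison. It read 257% to 374% of the 75th percentile in Sham and 105% to 190% in I/R. Itgam was higher in I/R and not called in DHI versus I/R (log2 fold change -1.73). Their summed signal, in multiples of the 75th percentile, was 13.2 to 15.8 in Sham, 83.4 to 239 in I/R, and 124, 17.6, and 21.0 on DHI 1 to 3. Fibroblast markers of meninges and vessels were higher in I/R for 6 of 6. They were lower in DHI than in I/R for 5, where 10.5% of all probes were called lower. Their sums were at most 9.87 in Sham, 61.0 to 99.0 in I/R, and 85.9, 6.20, and 7.02 on DHI 1 to 3. Neutrophil markers were called higher for 5 of 9 and T cell markers for 3 of 6. Platelet markers were called higher for 1 of the 4 on the array and mast cell markers for 0 of 8. Over all probes tested, 20.8% were called higher. These lists include markers too dim to test, namely Elane (well above background on 0 arrays), Cxcr2, Ngp, Cd2, Ppbp, Gp1ba, Cma1, Ms4a2, and Fcer1a. Mmp8 and Cd8a were called though above background on 0 Sham arrays. In DHI versus I/R, 2 T cell markers, 1 neutrophil marker, and 1 platelet marker were called lower. There 1 neutrophil and 1 platelet marker were called higher.

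Neuron markers moved with Ptgs2. All 8 of 8 were lower in I/R than in Sham and 6 were higher in DHI than in I/R, where 22.3% and 11.4% of all probes were. Their summed signal was 67.1 to 74.0 in Sham, 6.38 to 32.4 in I/R, and 21.0, 71.1, and 55.0 on DHI 1 to 3. Astrocyte markers were higher in I/R for 4 of 6, endothelial markers for 2 of 6, and choroid plexus markers for 2 of 5, of which Kl was too dim to test. In DHI versus I/R, 2 astrocyte markers were called lower and 0 higher, and 0 endothelial and 0 choroid plexus markers were called. The astrocyte sums were 57.2 to 65.2 in Sham, 82.1 to 116 in I/R, and 88.7, 55.2, and 62.1 on DHI 1 to 3. In bulk tissue, fewer cells of a type and less RNA per cell cannot be told apart. The part of these markers in the values of the prostaglandin and leukotriene genes was not tested.

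**Figure D3:**
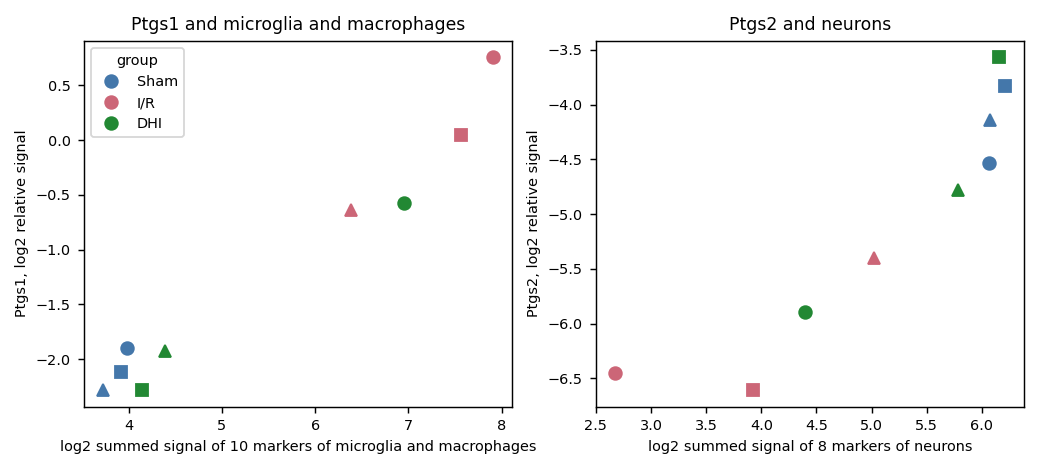
Log2 relative signal of Ptgs1 against the log2 summed signal of 10 microglia and macrophage markers (left) and of Ptgs2 against 8 neuron markers (right), sums in multiples of the 75th percentile, with 1 point per array, coloured by group, and circle, square, and triangle for replicates 1 to 3. DHI 1 (marker sums 124 and 21.0) lies with the I/R arrays in both panels, and DHI 2 and DHI 3 lie with or next to Sham.

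The genes most like Ptgs1, Ptgs2, and Alox5ap in pattern were taken by Pearson's r over the 9 arrays among 13677 genes. They were Oaf, Ppm1j, and Dnase1l3 for Ptgs1 (r 0.998, 0.998, and 0.996), Cyc1, Fdx1l, and Snap47 for Ptgs2 (0.996, 0.995, and 0.995), and Sh2b3, Ptgr1, and Cd244 for Alox5ap (0.998, 0.997, and 0.997). These names are those on the array. In RefSeq the probe named Cd244 matches Cd244l1 and that named Fdx1l matches Fdx2, and the probes named Cyc1 and Sh2b3 had no match. Cyc1 encodes a subunit of mitochondrial complex III and Snap47 a protein of the SNARE family, and Ptgr1, prostaglandin reductase, belongs to the pathway itself. These are the highest values among many genes, over few arrays that fall apart in the same way. They are given as a description.

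Of 45 further genes of the pathway, 39 could be tested. In I/R versus Sham 19 were called, 14 higher and 5 lower, with 16 under an adjusted p of 0.05 (11 higher and 5 lower) and a median log2 fold change of 0.33, beside -0.10 for all probes. The shares of all probes were 20.8% higher, 22.3% lower, and 32.3% after adjustment. Of the 19, 4 were tested because 1 of these groups was bright enough, Slco2a1, Dpep1, and Dpep2 being dim on all Sham arrays and Pla2g4e on all I/R arrays. Between DHI and I/R 12 were called, 4 higher and 8 lower, beside 11.4% and 10.5% of all probes, with 0 after adjustment and a median of -0.07. The 4 higher are close to the share of all probes. Of the 12, 3 were also genes dim on all Sham or all I/R arrays. Slco2a1 and Dpep2 were among the lower and Pla2g4e among the higher. In DHI versus Sham 1 of the 39 was called, close to the 2.52% of all probes called higher. It was Pla2g5, a secreted phospholipase, named because it was the only one. Pla2g5 read -6.67, -6.41, and -7.16 in Sham and -2.88, -6.55, and -5.09 in DHI, so the groups overlapped. Its log2 fold change was 1.90 (SE 0.78, limma adjusted p = 0.708).

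Release of arachidonic acid divided by enzyme. Pla2g4a, the cytosolic phospholipase that frees arachidonic acid from membranes, read -4.55, -4.25, and -4.26 in Sham, -1.07, -1.50, and -2.38 in I/R, and -4.50 and -3.97 on DHI 2 and DHI 3, with DHI 1 inside the range of I/R. All I/R arrays were above all Sham arrays, with log2 fold changes of 2.70 in I/R versus Sham (SE 0.62, limma adjusted p = 0.0397) and -1.84 in DHI versus I/R (SE 0.62, adjusted p = 0.196). Mgll, which releases arachidonic acid from the endocannabinoid 2-arachidonoylglycerol, was lower in I/R (log2 fold change -0.85, SE 0.25, adjusted p = 0.0417) and higher in DHI than in I/R (0.81, called, adjusted p = 0.196).

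Among the synthases beyond prostaglandin H2, Tbxas1, thromboxane synthase, was called in both comparisons. It read -2.86, -3.43, and -3.43 in Sham, 1.36, 1.65, and 0.18 in I/R, and 0.41, -3.36, and -2.27 in DHI. Every I/R array was above every Sham array, and DHI 1 lay inside the range of I/R. Its log2 fold change was 4.31 in I/R versus Sham (SE 0.87, limma adjusted p = 0.0397) and -2.80 in DHI versus I/R (SE 0.87, adjusted p = 0.196). Hpgds, the hematopoietic prostaglandin D synthase, was called higher in I/R (2.83, SE 0.98, adjusted p = 0.0562) and not called in DHI versus I/R (-1.77, SE 0.98). Ptgds, the lipocalin-type prostaglandin D synthase of meninges and choroid plexus, was not called in either comparison (0.70, SE 0.40, and -0.82, SE 0.40), and neither was prostacyclin synthase, Ptgis (1.39, SE 0.63, and -1.10, SE 0.63).

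Downstream in the leukotriene branch, Lta4h, which makes leukotriene B4, was called higher, with a log2 fold change of 0.78 in I/R versus Sham (SE 0.24, limma adjusted p = 0.0445) and -0.62 in DHI versus I/R (called, adjusted p = 0.196). Dpep2, a dipeptidase that trims cysteinyl leukotrienes, had the largest fitted rise in I/R over Sham of the pathway genes tested. It was above background on 0 Sham arrays and was tested only because it was bright enough in I/R. The log2 fold change of Dpep2 was 4.91 (SE 1.13, limma adjusted p = 0.0397), from Sham signal not above background. Its I/R mean was at least 25.3-fold above Sham, a bound that makes no allowance for spread between arrays. Most receptors for the products were too dim to test. Ltb4r2, a second receptor of leukotriene B4, was tested and not called, with log2 fold changes of 0.18 (SE 0.34) in I/R versus Sham and -0.07 (SE 0.34) in DHI versus I/R. Ltb4r2 and Dpep2 were chosen after their values were seen, and the rank and p-value of Dpep2 make no allowance for that choice. Ltb4r, the leukotriene B4 receptor, was well above background on 1 Sham, 0 I/R, and 1 DHI arrays, and Cysltr1, a receptor of the cysteinyl leukotrienes, on 0 arrays. Hpgd, which inactivates prostaglandins, had log2 fold changes of 0.78 (SE 0.36) and -0.71 (SE 0.36) and was not called in either comparison.

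**Figure D4:**
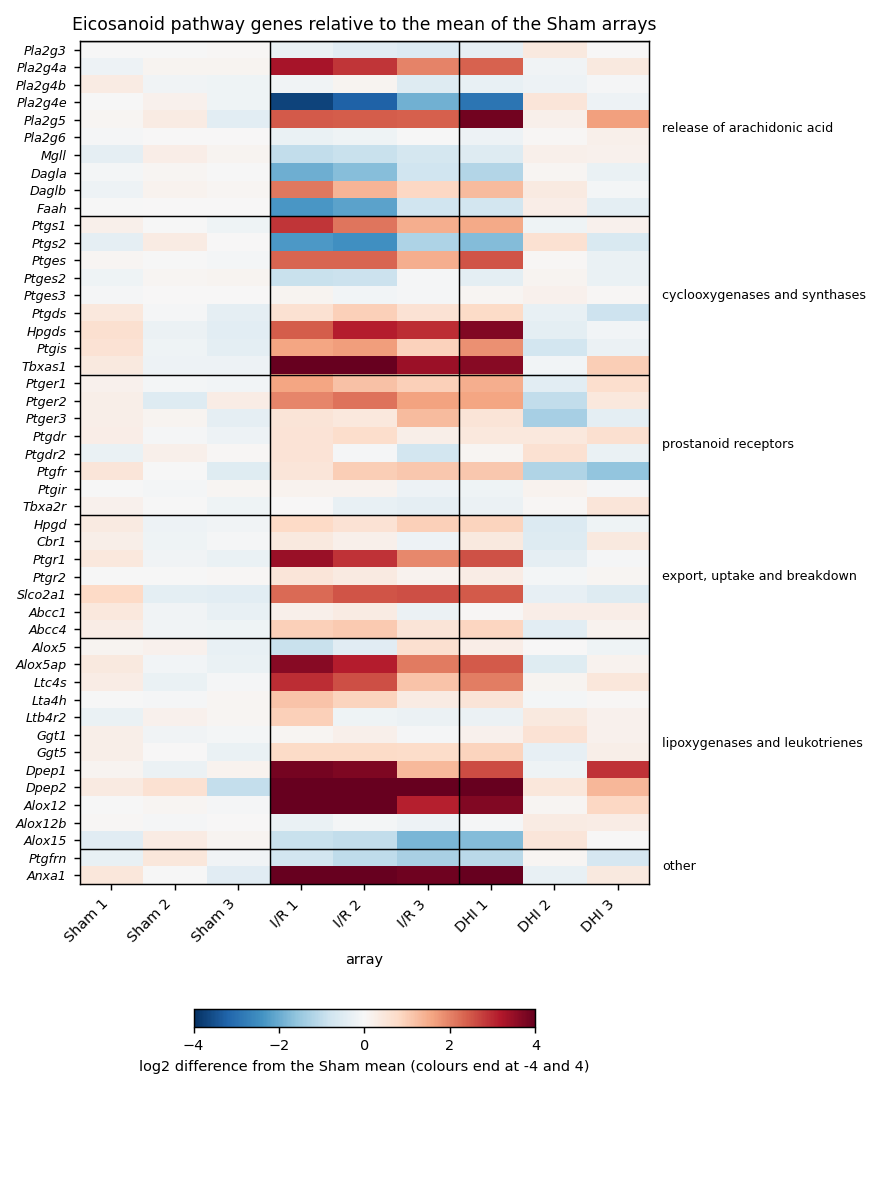
Log2 difference of each pathway gene from the mean of the Sham arrays, with genes in rows grouped by role and the 9 arrays in columns; the colours end at -4 and 4, and genes that could not be tested are left out. Red marks signal above Sham and blue below, and I/R 1, I/R 2, I/R 3, and DHI 1 share most of the strong colours, as for Tbxas1, while Ptgs2 is blue on those arrays.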

How the data were processed

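RNA of 9 rat hemispheres was measured on one-color Agilent arrays, 3 per group, and groups were taken from the sample labels. The authors deposited, for each array, the spot intensity given by Agilent Feature Extraction 10.7.1.1, corrected for background and not scaled between arrays. They also deposited log2 values for the series, which share 1 distribution over all arrays and served as an alternative. No column of values was left unused (0).

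Control and outlier spots were left out, the array's 75th percentile was subtracted from log2 intensity, and repeat spots were averaged. A probe entered the test if all 3 arrays of some group had it well above background (23747 of 30367), and the fit was made in 1 limma model over 9 arrays (R 4.3.3, limma 3.58.1, and the data.table package, version 1.17.8) with 6 residual degrees of freedom and Benjamini-Hochberg adjustment. The limma fit, and not the steps before it, was tried on simulated data with independent noise for each probe and array. The replicates are separate rats, and their number limits the precision.

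The named genes are the 10 genes, 10 further pathway genes, and the 3 genes of most similar pattern to each of Ptgs1, Ptgs2, and Alox5ap, each by its brightest probe; Pla2g5, Ltb4r2, Dpep2, and the genes given as exceptions were named after their values were seen. Genes and lists were chosen with earlier results of these data known. Motifs were searched in RefSeq promoter windows, where 9 of the 10 genes matched by symbol. The alternatives were no scaling, quantile normalization, normexp (offset 50), the authors' log2 values, no filter, probes well above background on all 9 arrays, only the compared groups, array weights, the replicate block, the methods' t-test, other probes, and each array left out.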

Additional observations from a re-analysis of the deposited data

How the results depend on the processing

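All values below are counts of genes called unless stated, and the number of arrays limits each of them. In I/R versus Sham, 6 to 9 of the prostaglandin and leukotriene genes were called when any 1 array was left out (9 of the 10 tested without I/R 3), and the count with an adjusted p under 0.05 was 0 with no scaling, 3 with no filter on dim probes, and 0 to 7 without 1 array. In DHI versus I/R the count was 3 with normexp, 3 in a model of the compared groups only, 0 by the methods' t-test, and 1 to 8 without 1 array, and the adjusted count was 9 with array weights and 0 to 8 without 1 array, 8 being without DHI 1. In DHI versus Sham the count was 2 with array weights and 0 to 3 without 1 array, and the adjusted count was 3 with array weights. For the 39 other pathway genes, the count in DHI versus I/R was 5 with only the compared groups, 23 with array weights, 1 by the methods' t-test, and 3 to 23 without 1 array. In DHI versus Sham it was 0 with quantile normalization, the authors' table, only the compared groups, or the methods' t-test, 4 with normexp, 9 with array weights, and 0 to 6 without 1 array. The labels do not say whether the replicate numbers mark a shared batch. Same-numbered arrays correlated from -0.34 to 0.47 in their deviations from the group means, which with 3 arrays per group cannot decide it. With the replicate block, 7 genes were called in I/R versus Sham, 6 between DHI and I/R, where Ltc4s gained its call (-1.35), and 0 between DHI and Sham, where the count of other pathway genes was 2. Direction (log2 fold change) turned for Alox5 in I/R versus Sham without I/R 1 (0.10, range -0.66 to 0.10 without 1 array), for Ptger1 in DHI versus I/R with normexp (0.36), and for Alox5 in DHI versus I/R with no scaling (-0.20) or without I/R 1 (range -0.069 to 0.69 without 1 array). In DHI versus Sham, where nothing was called, it turned for Ptges with array weights (-0.24) and without DHI 1 (range -0.11 to 1.29 without 1 array), for Ptger2 without DHI 1 (-0.28 to 0.99), for Alox5ap without DHI 1 (-0.17 to 1.29), for Ptger3 with normexp (0.25) and without DHI 2 (-0.86 to 0.066), and for Alox5 with quantile normalization (-0.15), the authors' table (-0.15), no scaling (-0.23), array weights (-0.16), and without Sham 3 (-0.11) or DHI 1 (-0.09, range -0.11 to 0.14). No scaling moved the median of all probes in DHI versus I/R from 0.10 to -0.36 and normexp moved it to 0.23. Where a setting changed a result, the cause was not tested. Ptger1 and Ptger4 are near background, which limits them to bounds.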
